A study of Mus musculus with 8 samples.

Results

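The genes described here encode the mitochondrial respiratory chain and ATP synthase, measured in whole brains from grown male offspring (C57BL/6J) of mice injected with ethanol or saline during pregnancy. Members were taken by symbol. They were the genes whose symbol begins with Nduf (complex I), Uqcr (complex III), Cox4i, Cox5, Cox6, Cox7 or Cox8 (complex IV) or Atp5 (complex V), together with Sdha, Sdhb, Sdhc and Sdhd (complex II), Cyc1 (complex III) and Cycs (cytochrome c). Pseudogenes marked -ps and probe sets that name several genes were left out, and a gene with several probe sets was represented by the one with the highest mean. This gave 91 of the 19938 genes that the array measures with a probe set of 1 symbol: 35 for complex I, 4 for complex II, 9 for complex III, 17 for complex IV, 17 for complex V, Cycs, 7 complex I assembly factors (Ndufaf1 to Ndufaf7) and Ndufa4l2, a relative of Ndufa4. Ndufa4 itself is kept with the Nduf genes, although its protein is found in complex IV.

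The respiratory chain sits in the inner mitochondrial membrane. Complexes I and II pass electrons from NADH and succinate through ubiquinone to complex III, cytochrome c carries them to complex IV, which reduces oxygen, and the proton gradient built on the way drives complex V, the ATP synthase. Neurons depend on this pathway for most of their ATP. A few core subunits of complexes I, III, IV and V are encoded by mitochondrial DNA, and all other subunits by nuclear genes such as those described here.

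The RNA on an array was a pool of 3 brains. The pregnant mice had received ethanol in saline, 2.5 g/kg at each of 2 injections a day, or the same volume of saline. The 4 groups of 2 arrays were: ethanol on gestational days 8 and 11 (early ethanol) against saline on those days (early saline), and ethanol on days 14 and 16 (late ethanol) against saline on those days (late saline). Offspring were killed at postnatal day 70, so every value is from adult brain long after the injections. Values are RMA log2 intensities, and differences are log2 ethanol minus log2 saline. The early and the late arrays differ in level and background, so no result compares a level across timings or between genes. Probe sets were sorted by their mean over the 8 arrays only to see how the differences varied with level. Most differences of single genes are given with ± their standard error from the limma fit. With 2 pools a group the p-values measure the spread between pooled samples, and an exact permutation test of 2 arrays against 2 could not give a two-sided p below 0.333. In whole brain, fewer cells of a type and less RNA per cell cannot be told apart.

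Of the 91 genes, 86 lay above the background of the early arrays and 84 above that of the late arrays, where background was set at the 95th percentile of the probe sets of odorant and pheromone receptors (1210). Those at background in both timings were Cox6b2, Cox7b2, Cox8b and Cox8c, isoforms known from testis or muscle, and Ndufa4l2. Cox4i2 and Ndufaf6 were also at background in the late arrays. Brain was the tissue the markers showed: all 8 neuron, 7 astrocyte and 7 oligodendrocyte markers lay above background in both timings, whereas 0 of 4 liver, 0 of 5 testis, 2 of 6 muscle (Acta1 and Tnnt3) and 1 of 2 red blood cell markers (Alas2) did. The background percentile was 6.41 to 6.55 on early arrays, and 7.28 to 7.70 on late ones.

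The promoters of 4 genes are shown because they belong to the 3 genes with the smallest p-values after late exposure (Atp5l, Ndufb8 and Atp5e) and to Cycs, the electron carrier. Nuclear respiratory chain genes are known targets of NRF1, of the ETS factor GABP and of YY1, and capitals mark matches, on either strand, to the letters searched for these: GCGCANGCG (NRF1), CCGGAAG (ETS) and AAGATGG (YY1). The sequences are from RefSeq (GRCm38.p6), each running 250 bases before to 50 bases after the start of the gene, on the minus strand in all 4 cases, at chr9:44920693-44920992 (Atp5l), chr19:44555393-44555692 (Ndufb8), chr2:174464052-174464351 (Atp5e) and chr6:50566520-50566819 (Cycs).
Atp5l: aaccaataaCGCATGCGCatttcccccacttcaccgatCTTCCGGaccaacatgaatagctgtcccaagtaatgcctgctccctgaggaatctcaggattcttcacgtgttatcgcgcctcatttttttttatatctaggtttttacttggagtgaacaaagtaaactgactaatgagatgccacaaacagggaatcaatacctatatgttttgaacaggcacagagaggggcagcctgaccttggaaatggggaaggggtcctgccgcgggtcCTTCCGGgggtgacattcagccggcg
Ndufb8: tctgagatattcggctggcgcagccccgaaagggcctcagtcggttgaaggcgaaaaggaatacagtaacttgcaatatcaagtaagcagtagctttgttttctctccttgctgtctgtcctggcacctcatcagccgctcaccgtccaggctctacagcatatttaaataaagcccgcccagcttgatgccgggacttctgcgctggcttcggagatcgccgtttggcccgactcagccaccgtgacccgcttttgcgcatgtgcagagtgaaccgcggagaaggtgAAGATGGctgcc
Atp5e: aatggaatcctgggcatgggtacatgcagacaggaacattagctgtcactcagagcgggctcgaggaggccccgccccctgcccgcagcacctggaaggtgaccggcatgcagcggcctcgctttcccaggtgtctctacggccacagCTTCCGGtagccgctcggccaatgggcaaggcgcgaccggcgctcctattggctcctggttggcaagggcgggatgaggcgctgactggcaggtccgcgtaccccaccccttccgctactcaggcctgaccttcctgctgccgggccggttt
Cycs: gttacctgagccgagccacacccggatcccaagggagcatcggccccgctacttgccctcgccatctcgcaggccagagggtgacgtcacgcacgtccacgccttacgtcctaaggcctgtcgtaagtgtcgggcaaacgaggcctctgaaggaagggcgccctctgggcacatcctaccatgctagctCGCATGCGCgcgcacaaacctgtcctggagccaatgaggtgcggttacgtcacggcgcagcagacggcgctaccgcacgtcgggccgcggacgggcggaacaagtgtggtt

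The Atp5l window held 1 NRF1 match and 2 ETS matches, Ndufb8 1 YY1 match in its transcribed bases, Atp5e 1 ETS match and Cycs 1 NRF1 match. A window was listed for 74 of the 91 genes. Among these 74 the NRF1 letters occurred in 22 (29.7%), against 7.03% of all 27025 genes with a window, the ETS letters in 18 (24.3%, against 9.93%) and the YY1 letters in 10 (13.5%, against 7.28%). The CCAAT box, searched as CCAAT, was about as frequent among the members (33, or 44.6%) as among all genes (41.1%). Such matches are strings of letters and do not show that a factor binds. After late exposure the median log2 difference was -0.092 for the 22 genes with the NRF1 letters and -0.077 for the 52 without them. It was -0.11 with the ETS letters and -0.074 without, -0.11 with the YY1 letters and -0.074 without, and -0.073 with CCAAT and -0.091 without.

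The first comparison asked whether these genes were expressed differently in adulthood after ethanol on days 14 and 16 of gestation. Most values were slightly lower in ethanol brains. Of the 91 genes, 76 had a lower mean in the ethanol arrays and 15 a higher one, with a median log2 difference of -0.073. No single gene passed the test. The lowest adjusted p among members was 1 (limma, Benjamini-Hochberg over 23410 probe sets), as 0 members and 0% of all probe sets were called. At an unadjusted p under 0.05, 2 members were lower and 0 were higher, whereas 1.37% of all probe sets were lower and 1.12% higher. The unmoderated test on the 4 late arrays called 5 members at this level, and 3.16% of all probe sets.

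The share of lower values has to be read against the array as a whole. Over all probe sets tested 52.7% were lower in late ethanol (median -0.007), but among those above background 72.3% were (median -0.051). The share grew with level. In the highest decile of probe sets by mean level, which holds 41 of the 91 members, 81.2% of all probe sets and 39 of the 41 members were lower, and the medians were -0.061 for all and -0.076 for the members. Had each member followed the share of its own decile, 66.3 of 91 would have been lower. With the median of its decile taken off each difference, the members' median was -0.029 and 57 of 91 were lower. Under cyclic loess, quantile normalization and centring of each level decile on each array, 56, 55 and 60 of 91 were lower. Over all probe sets 50.6%, 48.8% and 51% were lower under these settings. With each array centred on its median, 73 of 91 members and 44.4% of all probe sets were lower. How far the processing of the arrays enters this common shift was not tested.

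**Figure D1:**
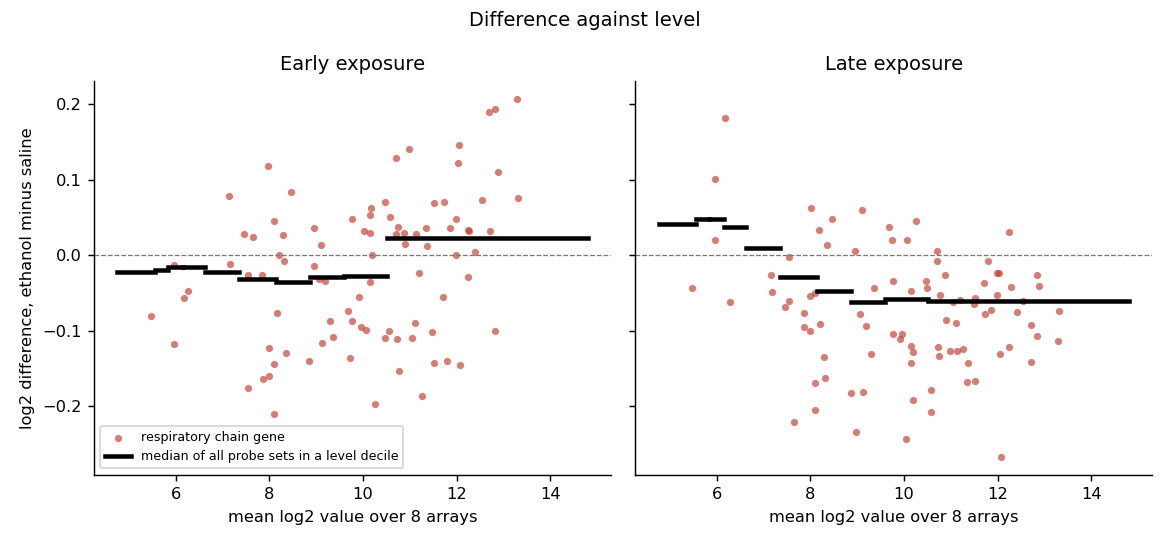
Log2 difference, ethanol minus saline, of each of the 91 genes (points) against its mean log2 value over 8 arrays, for early (left) and late (right) exposure, with the median of all probe sets in each level decile (black bars). In the late arrays the bars fall below 0 as level rises, reaching -0.061 in the highest decile, and most genes lie at such levels.

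The arrays themselves showed the same order. Relative to the mean of the 4 late arrays, the median member lay at -0.051 and -0.032 in the ethanol arrays, against 0.068 and 0.013 in the saline arrays. In the highest decile of all probe sets these medians were -0.019 and -0.033 in ethanol and 0.055 and 0.002 in saline. In 36 members both late ethanol arrays lay below both saline arrays, and in 1, Ndufv3, both lay above. These are 39.6% of the members for the lower direction. The share was 15.7% of all probe sets, 25.1% of the upper 5 level deciles and 33.4% of the highest decile. Had each member followed the share of its own decile, 26.8% would have done so. In the other direction 12.7% of all probe sets lay above. For 24 members (26.4%) the difference was larger than the gap within either group. This held for 16.7% of all probe sets, 17.8% of the upper 5 level deciles and 23.2% of the highest decile. The count of 36 fell to 22, 21 and 19 under cyclic loess, quantile normalization and centring by level decile. These are 24.2%, 23.1% and 20.9% of the members, against 16.7%, 14.1% and 16% of the upper 5 level deciles under the same settings.

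**Figure D2:**
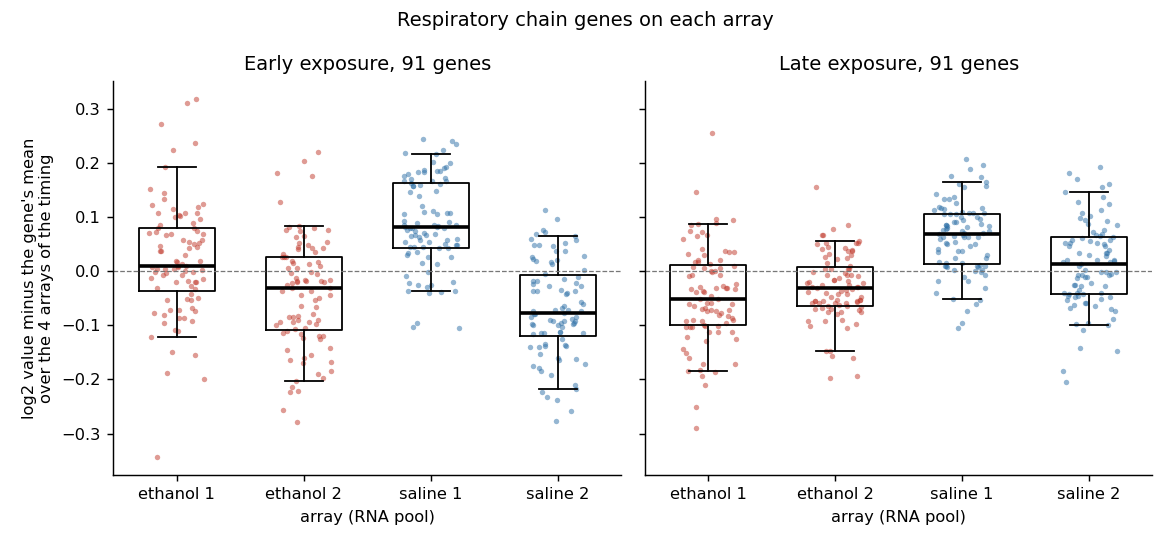
Log2 value of each of the 91 genes minus its mean over the 4 arrays of the timing, for each array (points), with the median, the quartiles (box) and the 5th and 95th percentiles (whiskers). The late ethanol arrays (medians -0.051 and -0.032) lie below the late saline arrays (0.068 and 0.013), while the early saline arrays (0.081 and -0.076) lie apart from each other.

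The medians and the counts of lower values varied between the complexes, and no difference between complexes was tested. Complex III had the lowest median (-0.13, 8 of 9 lower, 5 with both ethanol arrays below both saline arrays), followed by complex V (-0.11, 16 of 17 lower, 9 such genes) and complex I (-0.076, 28 of 35 lower, 15 such genes). Of all probe sets 15.7% lay below in this way, and of the upper 5 level deciles 25.1%. The 7 assembly factors were all lower (median -0.091). Complex IV had a median of -0.042, with 12 of 17 lower and 5 not overlapping, but its sign turned under cyclic loess (0.008), quantile normalization (0.010) and centring by level decile (0.002). It includes 7 isoforms known from muscle, testis or lung, with a median of 0.020, 3 lower and 0 not overlapping. Only 2 of these 7 lay above the late background. The 5 complex IV genes with separate groups were all among its other subunits. The median and count of complex IV therefore mix these subunits with isoforms mostly at background. Complex II had a median of -0.035, with 3 of 4 lower and 0 below both saline arrays, and it too turned, to 0.025, 0.028 and 0.021. The medians of complexes I, III and V stayed below 0 under these 3 settings. The order of the complexes was not stable, since without late saline 1 the medians were -0.070 for complex III, -0.078 for complex V and -0.050 for complex I. Complex IV had 0.013 without late ethanol 2, and complex II 0.066 without late saline 1 and -0.13 without late saline 2.

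**Figure D3:**
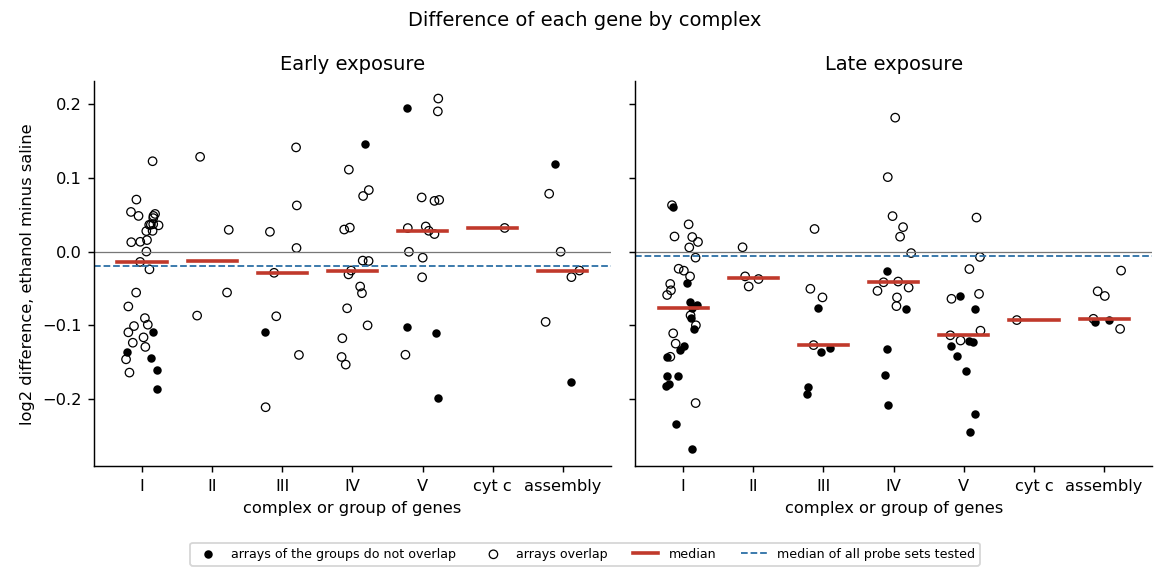
Log2 difference, ethanol minus saline, of each gene by complex for early (left) and late (right) exposure, with the median of each complex (red bars) and of all probe sets tested (dashed line). Filled points are genes whose ethanol and saline arrays do not overlap, and after late exposure 36 of the 37 such genes lie below 0.

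Complex I takes electrons from NADH. Ndufb8, an accessory subunit of its membrane arm, measured 8.93 and 9.09 in late ethanol, against 9.28 and 9.20 in late saline. Both ethanol arrays were below both saline arrays, by -0.23 ± 0.10 (SE of the limma fit), a fold of 0.851. This difference passed an unadjusted p under 0.05, but no longer did so under 6 of the other settings with all late arrays in use, among them the unmoderated test, or without late ethanol 1, late saline 1 or late saline 2. Ndufa1, an X-linked accessory subunit needed for assembly, measured 8.44 and 8.50 in ethanol, against 8.65 and 8.63 in saline (difference -0.17 ± 0.085). Ndufa7, another accessory subunit, stood at 9.13 on both ethanol arrays, against 9.30 and 9.31 on the saline arrays (-0.18 ± 0.095). The groups of both genes were separate. Ndufs4 is an accessory subunit whose loss in mice causes a fatal encephalopathy. It is named after its values were seen, as the only member whose highest probe set differed by more than 1.2-fold. It measured 11.95 and 12.26 in ethanol, against 12.40 and 12.35 in saline (-0.27 ± 0.14), and its ethanol pools lay further apart (0.31) than its groups. By its highest probe set no member passed both an unadjusted p under 0.05 and 1.2-fold, as 0.722% of all probe sets did in the lower direction. Of all 118 probe sets of the members, 3 passed both in the lower direction. These were further probe sets of Atp5l and Cycs.

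Among the 29 accessory subunits of complex I, 23 were lower in late ethanol (median -0.090) and 15 of them lay below both saline arrays. Of all probe sets 15.7% lay so, of the upper 5 level deciles 25.1% and of the highest decile 33.4%. Of the 6 core subunits measured, among them those that carry the flavin and iron-sulfur centres, 5 were lower, with a median of -0.038. None had separate groups, and core and accessory subunits were not tested against each other. Ndufs3, a core subunit, measured 11.19 and 11.32 in late ethanol, against 11.45 and 11.30 in late saline, so the groups overlapped. Ndufs7, a core subunit with an iron-sulfur cluster, measured 12.03 and 11.93 in ethanol, against 12.00 on both saline arrays. Ndufv3, a small subunit of the NADH-oxidizing module, was the single gene with both ethanol arrays above, at 9.58 and 9.63, against 9.57 and 9.52 in saline (0.060 ± 0.077).

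Complex II, succinate dehydrogenase, also works in the tricarboxylic acid cycle. None of its genes separated the groups. The flavoprotein Sdha measured 11.95 and 11.88 in late ethanol, against 12.04 and 11.87 in late saline. The iron-sulfur subunit Sdhb measured 9.48 and 9.59 in ethanol, against 9.68 and 9.45 in saline. The membrane anchors gave 11.03 and 11.11 in ethanol, against 11.15 and 10.98 in saline, for Sdhc, and 10.79 and 10.85, against 10.95 and 10.78, for Sdhd. In all 4 genes the saline arrays enclosed both ethanol arrays, and the differences lay between -0.047 and 0.006.

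Complex III hands electrons to cytochrome c. Cyc1, its cytochrome c1, measured 9.50 and 9.66 in late ethanol, against 9.71 and 9.83 in late saline (-0.19 ± 0.096, fold 0.875). The small subunit Uqcrq measured 9.47 and 9.48 in ethanol, against 9.62 and 9.59 in saline (-0.13 ± 0.11). Uqcr10, another small subunit, measured 8.35 and 8.42 in ethanol, against 8.58 and 8.45 in saline (-0.14 ± 0.12). In these 3 genes the groups did not overlap, while the spread within a group was 0.010 to 0.11 (SD, n = 2). Uqcrb, which binds ubiquinone, was the 1 member of complex III with a higher mean, at 12.14 and 12.06 in ethanol, against 12.03 and 12.11 in saline (0.030 ± 0.14).

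Complex IV is cytochrome c oxidase. Cox4i1, the ubiquitous isoform of subunit 4, measured 10.58 and 10.66 in late ethanol, against 10.87 and 10.79 in late saline (-0.21 ± 0.11, fold 0.866). Cox6b1, which lies on the side where cytochrome c docks, measured 11.35 and 11.40 in ethanol, against 11.53 and 11.56 in saline (-0.17 ± 0.11). The zinc-binding subunit Cox5b measured 12.25 and 12.20 in ethanol, against 12.30 and 12.41 in saline (-0.13 ± 0.086). All 3 separated the groups in the lower direction. Cox7a2l gave 9.12 and 8.88 in ethanol, against 8.98 and 8.93 in saline, with the ethanol pools on either side of the saline ones. The 7 isoforms known from muscle, testis or lung (Cox4i2, Cox6a2, Cox6b2, Cox7a1, Cox7b2, Cox8b and Cox8c) had a late median of 0.020, with 3 lower. Only Cox6a2 and Cox7a1 of them were above the late background.

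Complex V makes ATP from the proton gradient. Atp5l, subunit g of its membrane part, measured 10.09 and 10.01 in late ethanol, against 10.22 and 10.36 in late saline. It had the smallest p of the members after late exposure, with a difference of -0.24 ± 0.089, a fold of 0.844, and passed an unadjusted p under 0.05. The array held 6 probe sets of this symbol. All 6 were lower in late ethanol, by -0.15 to -0.28, and 5 of them had an unadjusted p under 0.05. They share a gene symbol and may share sequence, so they are not separate measurements. For Atp5l, Cycs, Uqcrb and Atp5g2, which have several probe sets each, some may lie in processed copies of the gene, which was not tested. The highest probe set no longer passed under cyclic loess, quantile normalization, centring by level decile or the unmoderated test, or without late ethanol 2 or late saline 2. Atp5e, the epsilon subunit of the central stalk, measured 7.66 and 7.80 in ethanol, against 7.95 on both saline arrays (-0.22 ± 0.096, fold 0.858), and lay just outside that threshold.

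The membrane subunit Atp5j2 measured 10.68 and 10.75 in late ethanol, against 10.84 and 10.83 in late saline (-0.12 ± 0.078). Atp5md, a small subunit that joins ATP synthase dimers, measured 12.29 and 12.33 in ethanol, against 12.36 and 12.54 in saline (-0.14 ± 0.12). In both the groups were separate. The catalytic beta subunit Atp5b measured 13.31 and 13.03 in ethanol, against 13.29 and 13.27 in saline, and the delta subunit Atp5d 12.97 and 12.78, against 12.97 and 13.00. For both only late ethanol 2 lay clearly below the saline arrays. Subunit c, the proton-carrying ring, is made from 3 genes with the same mature protein. Atp5g1 measured 11.71 and 11.75 in ethanol, against 11.85 and 11.76 in saline (-0.078). Atp5g2 measured 11.84 and 11.79 in ethanol, against 11.94 and 11.80 in saline (-0.057). Atp5g3 measured 12.04 and 11.97 in ethanol, against 12.09 and 11.94 in saline (-0.007). The groups of Atp5g1 were separate and those of the other 2 genes were not. Atp5mpl, a small accessory protein, was the only complex V member with a higher late mean, at 10.60 and 10.49 in ethanol, against 10.58 and 10.41 in saline (0.046 ± 0.095).

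Cytochrome c itself (Cycs) measured 12.44 and 12.41 in late ethanol, against 12.42 and 12.62 in late saline, a difference of -0.093 ± 0.17. Only late saline 2 stood apart, and without it the difference was 0.007. The gene has 2 further probe sets. The first differed by -0.12, with overlapping groups. The other was below background on every late array, with both ethanol arrays (6.12 and 6.18) below both saline arrays (the lower at 6.41), and passed an unadjusted p under 0.05 with the smallest late p of all 118 probe sets of the members.

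**Figure D4:**
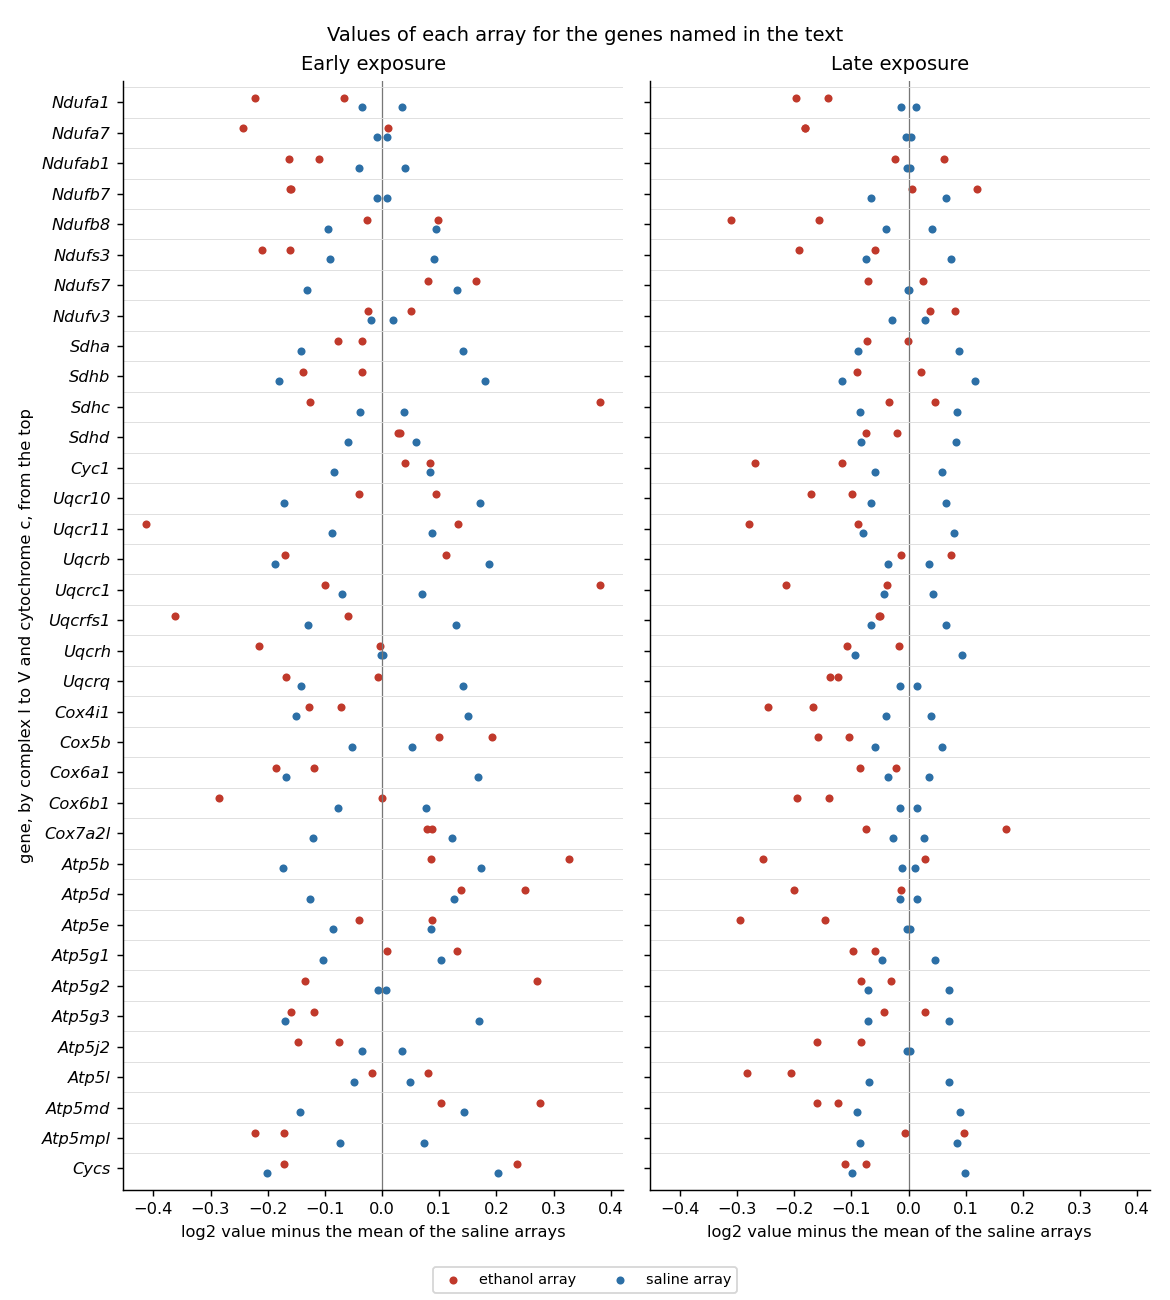
Log2 value of each array minus the mean of the saline arrays of its timing for the 36 genes chosen by rule, ethanol arrays above saline arrays in each row, for early (left) and late (right) exposure. Atp5l, Ndufb8, Atp5e, Cyc1 and Cox4i1 show both late ethanol arrays left of both saline arrays, and in the early panel the saline arrays of many genes lie far apart.

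The second comparison asked the same of days 8 and 11. The values had no common direction. Of the 91 genes, 50 were lower in early ethanol and 41 higher, with a median difference of -0.012, whereas 59.8% of all probe sets tested and 59.3% of those above background were lower. Had each member followed the share of its own level decile, 47.7 of 91 would have been lower, since in the highest decile 39.3% of all probe sets were. Both ethanol arrays lay below both saline arrays for 11 members, against 18.9% of all probe sets, and above them for 3 (Cox5b, Atp5d and Ndufaf5), against 7.5%. No member had an unadjusted p under 0.05 in either direction (all probe sets, 1.29% lower and 0.427% higher) and 0 passed the adjusted threshold, as did 0% of all probe sets (limma). The unmoderated test called 1 member at p under 0.05, Ndufb7, and 3.4% of all probe sets.

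The early saline arrays differed from each other more than the groups did. Relative to the mean of the 4 early arrays the median member lay at 0.010 and -0.030 in ethanol, against 0.081 and -0.076 in saline. The median gap between the saline pools was 0.17, and between the ethanol pools 0.10. Without early saline 1 only 29 of 91 members were lower in ethanol (median 0.055), and without early saline 2 there were 73 (median -0.085), so the direction over the members depended on which saline pool was kept.

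Complex V had an early median of 0.028, with 7 of 17 lower, but the median was -0.071 without early saline 2 and 0.11 without early saline 1. Atp5b measured 13.58 and 13.34 in early ethanol, against 13.43 and 13.08 in early saline (0.21 ± 0.14). Atp5d measured 12.89 and 12.78 in ethanol, against 12.77 and 12.51 in saline (0.19 ± 0.11), so its groups were separate by a narrow margin. Atp5md measured 13.04 and 13.21 in ethanol, against 13.08 and 12.79 in saline (0.19 ± 0.12). In all 3 early saline 2 was the lowest array. Without it the differences were 0.034 (Atp5b), 0.067 (Atp5d) and 0.046 (Atp5md), and without early saline 1 they were 0.38, 0.32 and 0.33. Atp5mpl had the smallest early p of the members, at 9.92 and 9.87 in ethanol, against 10.16 and 10.02 in saline (-0.20 ± 0.095). The 3 subunit c genes differed by 0.070 (Atp5g1), 0.068 (Atp5g2) and -0.14 (Atp5g3), each within the spread of its arrays. Cycs measured 12.78 and 13.19 in ethanol, against 13.15 and 12.75 in saline, a spread of 0.29 in both groups (SD, n = 2) around a difference of 0.032.

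In complex I the lower early genes included the core subunit Ndufs3, at 11.14 and 11.09 in ethanol, against 11.39 and 11.21 in saline (-0.19 ± 0.099). It passed an unadjusted p under 0.05 under cyclic loess, quantile normalization and centring by level decile. Ndufb7, an accessory subunit, measured 7.88 on both ethanol arrays, against 8.05 and 8.03 in saline (-0.16 ± 0.084). Ndufab1, the mitochondrial acyl carrier protein, measured 9.39 and 9.33 in ethanol, against 9.54 and 9.46 in saline (-0.14 ± 0.079). Ndufs7 had a higher mean, at 12.17 and 12.09 in ethanol, against 12.14 and 11.88 in saline (0.12 ± 0.10). The first 3 of these genes had separate groups and Ndufs7 did not.

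In complexes II, III and IV the early differences were mostly smaller than the gaps between pools. The Rieske iron-sulfur protein Uqcrfs1 measured 7.66 and 7.36 in ethanol, against 7.85 and 7.59 in saline (-0.21 ± 0.13). Uqcr11, a small subunit of complex III, measured 8.94 and 9.48 in ethanol, against 9.44 and 9.26 in saline (-0.14 ± 0.17). The hinge protein Uqcrh measured 10.74 and 10.53 in ethanol, against 10.75 and 10.74 in saline (-0.11 ± 0.10). Core protein 1, Uqcrc1, measured 10.92 and 10.44 in ethanol, against 10.61 and 10.47 in saline (0.14 ± 0.15). In Uqcr11 and Uqcrc1 a single ethanol pool set the direction. Sdhc behaved in the same way, at 10.66 and 10.15 in ethanol, against 10.31 and 10.24 in saline (0.13 ± 0.15). The other complex II genes differed by -0.055 (Sdha), -0.087 (Sdhb) and 0.029 (Sdhd).

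Cox5b was the 1 complex IV gene with separate early groups, at 11.94 and 11.85 in ethanol, against 11.80 and 11.70 in saline (0.15 ± 0.086). Cox6a1, the ubiquitous isoform of subunit 6a, measured 10.49 and 10.55 in ethanol, against 10.84 and 10.50 in saline (-0.15 ± 0.11). Cox6b1 measured 11.64 and 11.35 in ethanol, against 11.71 and 11.56 in saline (-0.14 ± 0.11), and Cox4i1 10.33 and 10.39, against 10.61 and 10.31 (-0.10 ± 0.11). The saline pools of Cox4i1 enclosed its ethanol pools, and the groups of Cox6a1 and Cox6b1 overlapped too.

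The third comparison set the early effect against the late effect within each gene. For 61 of 91 members the early difference was above the late one, with a median of 0.058, against 44.8% of all probe sets and 58.6% of those above the late background. Had each member followed the share of its own level decile, this would have been 56.9 of 91. No member reached an unadjusted p under 0.05 (limma, interaction contrast), against 2.06% of all probe sets, and 0 members and 0% of all probe sets passed the adjusted threshold (lowest adjusted p of a member, 0.9996). The smallest p-values were those of Cox5b (early minus late 0.28 ± 0.12), Atp5l (0.28 ± 0.13) and Atp5md (0.33 ± 0.17). Cox5b differed by 0.15 early and -0.13 late, Atp5l by 0.032 and -0.24, and Atp5md by 0.19 and -0.14. The order of the timings over the members rested on the early saline pools, since 53 of 91 members had the lower value early without early saline 2, and 18 without early saline 1. In the counts of direction, 38 members were lower in both timings, 38 higher early and lower late, 12 lower early and higher late, and 3 higher in both. With both timings averaged, 70 members were lower (median -0.049), against 56.7% of all probe sets and 70.3% of those above the late background, and the share of each level decile would have given 59.8 of 91. In this mean 1 member, Ndufa1 (-0.16 ± 0.060), passed an unadjusted p under 0.05, as 1.56% of all probe sets did, and 0 members and 0% of probe sets passed the adjusted threshold.

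Other genes of mitochondria and energy metabolism were looked at beside the members. Late medians below 0 were common to them. Of all probe sets above the late background 72.3% were lower, with a median of -0.051. The 77 mitochondrial ribosomal proteins had a late median of -0.098, with 65 lower. Of these genes 6 were lower at an unadjusted p under 0.05, against 1.37% of all probe sets. The 18 import genes had -0.091 (17 lower), the 7 outer membrane channel and carrier genes -0.11 (7 lower), and the 36 other assembly factors -0.071 (27 lower). Glycolysis had -0.077 (12 of 13 lower), the tricarboxylic acid cycle with pyruvate dehydrogenase -0.034 (12 of 16 lower), and the biogenesis regulators, among them Ppargc1a, Nrf1 and Tfam, -0.057 (13 of 13 lower). Outside mitochondria, the late medians were -0.065 for 59 cytosolic ribosomal proteins (45 lower) and -0.082 for 40 proteasome subunits (30 lower). The members' -0.073 lay within the range of these lists, and none of them held a call after adjustment.

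**Figure D5:**
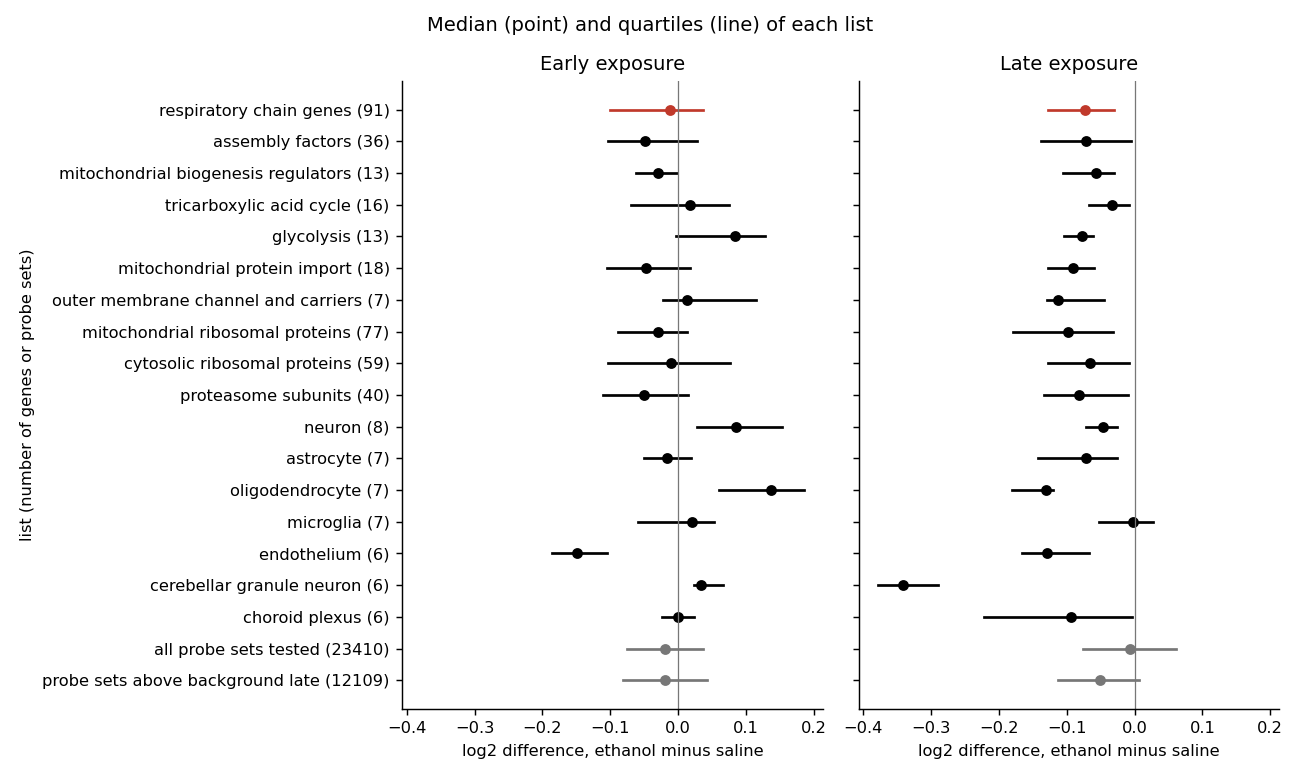
Median (point) and quartiles (line) of the log2 difference, ethanol minus saline, for the respiratory chain genes, the pathway lists, the cell type markers and all probe sets tested, for early (left) and late (right) exposure. The members' late median of -0.073 lies among those of the other mitochondrial lists, and the cerebellar granule neuron markers lie lowest at -0.34.

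In the early arrays the biogenesis list held the gene Tfam, the packaging and transcription factor of mitochondrial DNA. It measured 7.21 and 7.52 in ethanol, against 7.96 and 7.55 in saline (-0.39, past an unadjusted p under 0.05 in limma). In the late arrays it measured 7.59 and 7.71 in ethanol, against 7.70 and 7.72 in saline. Of the 13 subunits encoded by mitochondrial DNA, 2 had probe sets of their own, and the higher one of each is given first. COX2, a catalytic subunit of complex IV, measured 14.61 and 14.80 in early ethanol, against 14.35 and 13.70 in early saline (0.68 ± 0.27, past an unadjusted p under 0.05 in limma). ND3 of complex I measured 14.31 and 14.60 in early ethanol, against 14.32 and 13.59 in early saline (0.50 ± 0.26). For both, early saline 2 was the lowest array. After late exposure they measured 14.49 and 13.76 (COX2) and 14.30 and 13.75 (ND3) in ethanol, against 14.08 and 14.46 and 13.93 and 14.28 in saline, and the groups overlapped. The lower COX2 probe set measured 14.49 and 14.72 in early ethanol, against 14.24 and 13.65 in early saline. That of ND3 measured 13.08 and 13.36, against 12.95 and 12.73. In both lower probe sets the early groups were separate and the late groups overlapped.

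Markers of some cell types moved with the late groups. All 6 cerebellar granule neuron markers had both late ethanol arrays below both saline arrays, with a median difference of -0.34, and 2 of them had an unadjusted p under 0.05. Of all probe sets 15.7% lay below in this way, of the upper 5 level deciles 25.1% and of the highest decile 33.4%. Such a p in the lower direction was found for 1.37% of all probe sets. The mean log2 level of the granule neuron markers was 10.53 and 10.93 in late ethanol, against 11.09 and 11.04 in late saline. The 7 oligodendrocyte markers were also all lower (median -0.13), with mean levels of 11.39 and 11.43 in ethanol, against 11.60 and 11.50 in saline. Early, the oligodendrocyte markers had a median of 0.14 and the granule neuron markers 0.033. Late medians were -0.13 for 6 endothelial markers (5 lower), -0.094 for 6 choroid plexus markers (4 lower), -0.071 for 7 astrocyte markers (6 lower), -0.046 for 8 neuron markers (7 lower) and -0.002 for 7 microglial markers (4 lower). All 6 granule neuron and all 7 oligodendrocyte markers were above background. Their part in the lower respiratory chain values was not tested.

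Of the 91 genes, 18 had several probe sets, and within each timing all probe sets of a gene had the same sign in 15 of the 18. The exceptions were Atp5h, Cycs and Ndufb11 early and Cox7b, Ndufab1 and Uqcrb late. Over all 118 probe sets of the members, 100 were lower after late exposure (median -0.076) and 60 after early exposure. Probe sets that name several genes were left out of the members, among them those shared by Cox7c and Gm12338. The 3 of them measured 13.15, 13.33 and 13.39 on late ethanol 1 and 12.89, 13.06 and 13.13 on late ethanol 2, against 13.11, 13.29 and 13.37 on late saline 1 and 13.26, 13.40 and 13.50 on late saline 2. As in Atp5b, only late ethanol 2 was low.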

How the data were processed

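The platform was the Affymetrix Mouse Gene 1.0 ST array, with 8 arrays in 4 groups. The log2 values are those the authors deposited, who scanned the arrays with Command Console and summarized probe sets by RMA with quantile normalization and GC adjustment in Partek Genomics Suite (6.6 in the submitters' notes). The late arrays are taken to have been processed like the early ones. The genome build behind the probe sets is not given in the sources used here. Of 35556 probe sets, 23410 carried a gene symbol and were tested. The limma package (3.58.1, R 4.3.3) fitted 4 group means over 8 arrays and was also run on simulated data with known changes. Its p-values are two-sided. P-values without the word adjusted are unadjusted. Other genes were represented by their highest probe set, as the members were. The members, gene lists and tests were chosen with earlier results of these data known. Named genes were, per timing and complex, the 3 subunits above background with the smallest p in the direction of most subunits and the 1 in the other, the 3 smallest for early minus late, and Cycs, Cyc1, the Sdh genes and the subunit c genes. Any further gene was picked with its values in view. Alternatives were the unmoderated test on 4 arrays, limma on 4 arrays, replicate blocks, 3 other normalizations, a filter on the lowest 25%, an intensity trend, array weights and each array left out. A crossed block and centring of each level decile (10 bins of probe sets by mean) were added after the data were seen.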

Additional observations from a re-analysis of the deposited data

How the results depend on the processing

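No member was called after adjustment under any setting. The late median of -0.073 was -0.028 under cyclic loess, -0.033 with each level decile centred on each array and -0.029 under quantile normalization, and the late genes with both ethanol arrays below both saline arrays numbered 22, 19 and 21. With each array centred on its median such genes numbered 27. At an unadjusted p under 0.05 the early count was 4 (loess), 1 (deciles), 1 (quantile) and 1 (unmoderated test), where 2.43%, 2.42%, 2.3% and 3.4% of all probe sets passed. The late count was 1 with array weights, median centring, an intensity trend, limma on 4 arrays or without the lowest 25% (1.54% to 2.71% of all), and 5 in the unmoderated test (3.16%). The early minus late count was 2 (loess), 2 (deciles) and 1 (quantile), against 2.9%, 2.9% and 2.73% of all. Same-numbered arrays deviated together early (correlation 0.47) and in opposition late (-0.46) over all probe sets, and the other way round over the members (-0.29 early, 0.18 late), and no label pairs them, so the numbers were not taken as pairs. With the replicate block the count was 1 early (1.67% of all) and 3 late (2.66%). With the late numbers crossed it was 1 early (4.11%), 3 late (4.72%) and 3 for early minus late (4.69%). For the mean of both the count was 2 with the block (1.47%), 5 with the crossed block (3.48%), 3 by deciles (2%) and 0 with median centring (1.42%). The block moved no median.

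With 1 array left out, ranges were -0.11 (without late saline 2) to -0.050 for the late median, -0.0924 (without early saline 2) to 0.00218 (without early saline 1) for the mean of both, 29 to 73 early lower genes, 18 to 53 for early minus late and 45 to 82 for the mean of both. Separate lower genes numbered 14 to 53 early and 44 to 65 late, since groups of fewer arrays overlap less often. No matching share of all probe sets is given for these settings. The counts therefore cannot tell the members apart from the rest of the array. Counts at an unadjusted p under 0.05 were 0 to 7 early, 0 to 6 late and 0 to 10 for early minus late, where 1.72% to 3.84%, 1.31% to 8.85% and 0.995% to 5.48% of all probe sets passed. A group reduced to 1 array borrowed its spread from the other groups.

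Named genes changed sign as follows, and the cause was not tested. Late differences became 0.00612 (loess) for Atp5g2; 0.057 (loess), 0.014 (centring), 0.048 (deciles) and 0.054 (quantile) for Atp5g3; 0.027, 0.018 and 0.024 (loess, deciles, quantile) for Sdha, 0.024, 0.023 and 0.032 for Sdhb, and 0.012, 0.0097 and 0.017 for Sdhd. The early difference of Cycs became -0.065 (loess) and -0.075 (quantile). With 1 array left out, early ranges that crossed 0 were -0.0325 to 0.172 (Atp5g1), -0.134 to 0.271 (Atp5g2), -0.310 to 0.0305 (Atp5g3), -0.0178 to 0.0812 (Atp5l), -0.250 to 0.0498 (Cox4i1), -0.321 to 0.0155 (Cox6a1), -0.0221 to 0.147 (Cyc1), -0.173 to 0.236 (Cycs), -0.00835 to 0.252 (Ndufs7), -0.198 to 0.0868 (Sdha), -0.267 to 0.0940 (Sdhb), -0.126 to 0.382 (Sdhc), -0.0305 to 0.0892 (Sdhd), -0.413 to 0.133 (Uqcr11) and -0.0996 to 0.381 (Uqcrc1). Late ranges were -0.128 to 0.0137 (Atp5g2), -0.0790 to 0.0642 (Atp5g3), -0.0391 to 0.131 (Atp5mpl), -0.0740 to 0.170 (Cox7a2l), -0.192 to 0.00675 (Cycs), -0.125 to 0.0507 (Sdha), -0.149 to 0.0820 (Sdhb), -0.0799 to 0.0914 (Sdhc), -0.130 to 0.0353 (Sdhd) and -0.0135 to 0.0744 (Uqcrb). The 2 pools a group and signal near background for 7 late genes limit the precision.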
